A study of Mus musculus with 2 samples.

Results

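Tnf, Il6, Il12b and Osm are 4 cytokine genes of inflammation, and their mRNA was followed across the immune cell types of the mouse lung. They were taken by symbol from the 31053 genes of 2 single-cell count tables, and all 4 were found in both. Each group of the study held 1 library. The first was labelled control, with the genotype Ccr2-/- (KO) and the congenic marker CD45.1+. The second carried the label Ccr2-/- (KO) and CD45.3+ and came from mice that breathed diesel exhaust particles (DEP, carbon-rich engine particles) in a whole-body chamber at 500 µg/m³. Exposure ran for 1 hour a day on 5 days a week over 2 weeks. The series text speaks of wild-type C57BL/6J and of Ccr2-/- mice, so the genotype of each library could not be settled from the descriptions. Ccr2, the receptor that lets monocytes leave the bone marrow, was seen in 349 of 389 classical monocytes of the control and in 584 of 602 of the exposed library. A 3′ tag that lies outside the deleted part of a gene checks no genotype, and where the deletion lies is not given, so these counts do not settle it. The lungs had been perfused with saline and digested with collagenase and DNase, and white blood cells were sorted from them by their surface protein CD45. The number of animals per library and their age are not given in the sources used here.

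The 4 proteins act at different points of an inflammatory response. TNF is made as a membrane protein, is cut free by the protease ADAM17 and signals through the receptors encoded by Tnfrsf1a and Tnfrsf1b. Interleukin 6 and oncostatin M both signal through gp130 (Il6st) to STAT3, with Il6ra or with Osmr and Lifr as partner chains. Il12b encodes p40, the subunit that joins the Il12a product in interleukin 12 and the Il23a product in interleukin 23, the first known for driving NK cells and type 1 T cells and the second for type 17 lymphocytes. In the lung, alveolar macrophages are the resident phagocytes that meet inhaled particles first. Transcription of these genes is known to rest on NF-κB, C/EBP and AP-1 factors, and their mRNAs are short-lived.

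Tnf (ENSMUSG00000024401) lies at chr17:35199381-35202007 on the minus strand of GRCm38, the mm10 build of the count tables. Il6 (ENSMUSG00000025746) lies at chr5:30013114-30019981 on the plus strand. Il12b (ENSMUSG00000004296) lies at chr11:44400063-44414033 on the plus strand, and Osm (ENSMUSG00000058755) at chr11:4236420-4241026 on the plus strand. All 4 are protein-coding in the GENCODE annotation. The 250 bases before the start of Tnf and of Il6 are shown, since the genes of the factors that read such sites are counted further on. They come from the RefSeq promoters of GRCm38.p6, which held 3 of the 4 genes, and lie at chr17:35202008-35202257 on the minus strand and chr5:30012864-30013113 on the plus strand. Capitals mark the letters matching 1 of 3 motifs searched on both strands.

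Tnf: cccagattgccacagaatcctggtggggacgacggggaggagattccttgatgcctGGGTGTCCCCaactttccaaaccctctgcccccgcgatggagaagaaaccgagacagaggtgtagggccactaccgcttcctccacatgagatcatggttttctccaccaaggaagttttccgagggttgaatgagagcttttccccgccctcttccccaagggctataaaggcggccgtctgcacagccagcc
Il6: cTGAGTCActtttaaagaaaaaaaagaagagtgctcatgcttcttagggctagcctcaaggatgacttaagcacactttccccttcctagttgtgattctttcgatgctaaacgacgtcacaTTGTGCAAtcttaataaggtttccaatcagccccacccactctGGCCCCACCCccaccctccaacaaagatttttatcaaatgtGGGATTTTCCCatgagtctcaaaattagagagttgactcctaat

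The κB motif was searched as GGGNNNNNCC, which 45.8% of the 32851 promoters of the table hold in the same 250 bases. Tnf matched it on both strands at 194 to 185 bases before the start. Il6 matched it at 85 to 76 bases and in 2 overlapping matches on opposite strands between 44 and 34 bases. Il6 also matched the AP-1 motif TGANTCA, held by 6.75% of promoters, and the C/EBP motif TTGCNNAA, held by 9.56%. The window of Il12b matched none of the 3 letter patterns. A second kind of site sits in the last exon of Tnf, whose 3′ UTR holds 5 copies of TTATTTATT, the AU-rich nonamer bound by the decay factor encoded by Zfp36. The first stands in exon 4 at chr17:35199689-35199717 on the minus strand, with the nonamer in capitals.

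Tnf AU-rich site: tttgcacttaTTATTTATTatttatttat

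Among 21153 genes with an annotated 3′ UTR, 7.58% held the nonamer. The annotated 3′ UTRs of Il6, Il12b and Osm held no copy of it, and each held 6 copies of the shorter ATTTA against 8 in Tnf.

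The control library held 10312 barcodes and 62047730 unique molecular identifiers (UMIs, tags that each count 1 captured transcript). The exposed library held 10000 barcodes and 67030914 UMIs. After filters on depth, mitochondrial share and doublets, 8940 control cells remained at a median depth of 3674 UMIs, and 8690 exposed cells at 4156. The libraries shared 23 barcodes, 18 of them among kept cells. Marker genes named 25 of 29 clusters, 3 were set apart as proliferating, and 1 stayed unnamed, led by the interferon-induced genes Ifit1, Rsad2 and Ifit3. Each class name below means cells like the named type. A level in CPM is the number of UMIs of a gene summed over the cells of a class and scaled to a total of 1000000. Levels carry exact 95% Poisson intervals, and shares of cells carry exact Clopper-Pearson intervals. With 1 library per group, no test between conditions was possible, and every interval covers counting error only. A difference is called past 2-fold where the log2 ratio of exposed over control was at least 1 in size and the summed count at least 20, and only classes with 50 or more cells per library were counted.

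The 4 genes were held by different cells. Alveolar macrophages held 62.6% of all Tnf UMIs and type 1 dendritic cells 59.2% of all Il12b UMIs. Neutrophils held 46.3% of all Osm UMIs and classical monocytes 32.7% of all Il6 UMIs. The breadth of detection differed as well. Osm was detected in 29.3% of the control cells and 29.6% of the exposed, and Tnf in 16.3% and 19.5%. An Il6 UMI was seen in 2.94% and 3.58% of cells. Il12b was seen in 77 control cells (0.861%) and 87 exposed cells (1%), and cells with 10 or more Il12b UMIs held 90.6% and 90.7% of its UMIs. Most cells held a UMI of none of the 4 genes, 5569 of the control and 5171 of the exposed cells, and 1 cell in all held all 4.

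**Figure D1:**
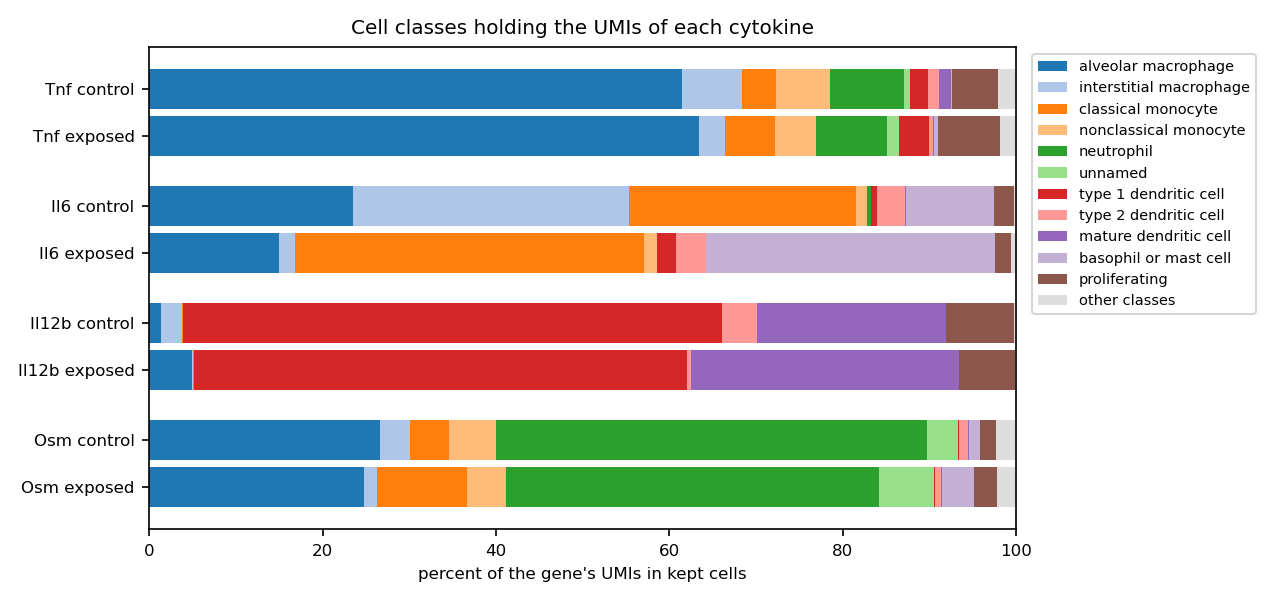
Horizontal bars show the percent of each cytokine's UMIs in kept cells (x axis) by cell class (colours), with 1 bar per gene and library. Tnf and Il12b were each held mostly by 1 class, Osm by neutrophils and alveolar macrophages, and the Il6 bars differ most between libraries, with interstitial macrophages at 31.9% of the control and 1.76% of the exposed UMIs.

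**Figure D2:**
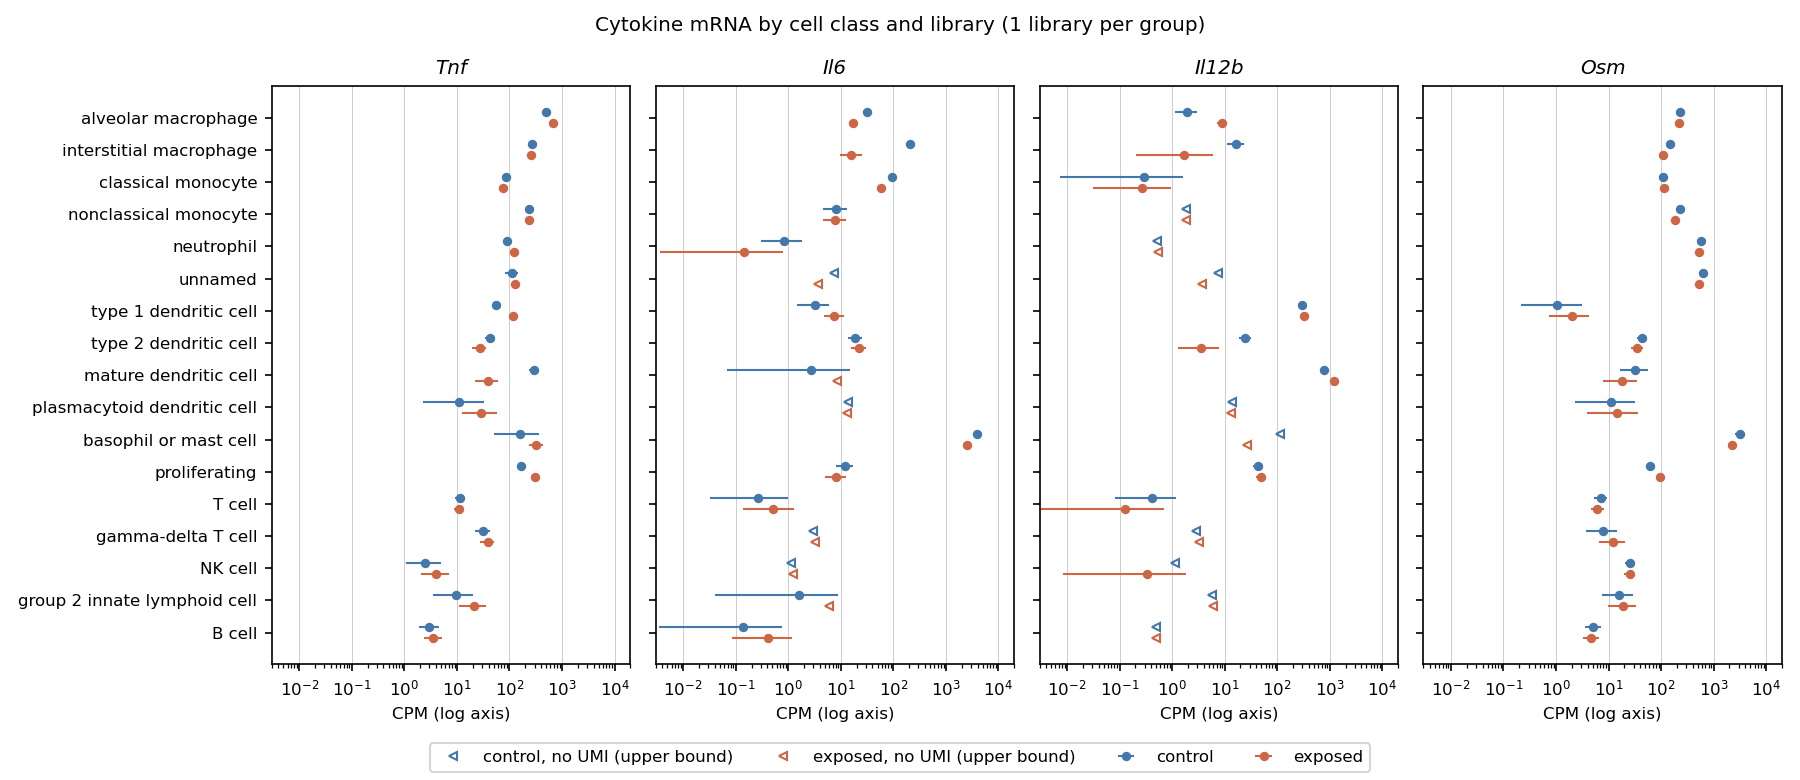
Points give the level of each cytokine in CPM (log x axis) in every cell class, blue for the control and orange for the exposed library, with 95% Poisson counting intervals, and open triangles give the upper bound where no UMI was seen. For Tnf the points run from 2.50 CPM in control NK cells to 672 CPM in exposed alveolar macrophages, while the 2 libraries mostly sit close together within a class.

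Over all kept cells, Tnf stood at 146 CPM in the control library and at 179 CPM after exposure. Alveolar macrophages, which carried the resident markers Chil3 and Siglecf, held the largest count. In 491 control cells Tnf stood at 494 CPM (interval 480 to 508, 4709 UMIs), and in 586 exposed cells at 672 CPM (656 to 689, 6363 UMIs). The exposed level was 1.36-fold higher, a log2 ratio of 0.44 (0.39 to 0.50). The share of alveolar macrophages with a Tnf UMI went the other way, from 78.4% (74.5 to 82.0) of control to 71.8% (68.0 to 75.5) of exposed cells. Their median depth was also lower in the exposed library, 15596 against 18050 UMIs. After every cell was thinned to 1000 UMIs, leaving out 10 control and 7 exposed cells, the shares were 32.0% and 33.7%. Cells with at least 50 Tnf UMIs made up 2.04% (0.981 to 3.71) of control and 4.44% (2.92 to 6.43) of exposed alveolar macrophages, with overlapping intervals, while those with at least 10 made up 33.8% and 32.9%. The 10% of cells with the most Tnf held 43.4% of the control and 49.1% of the exposed UMIs.

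**Figure D3:**
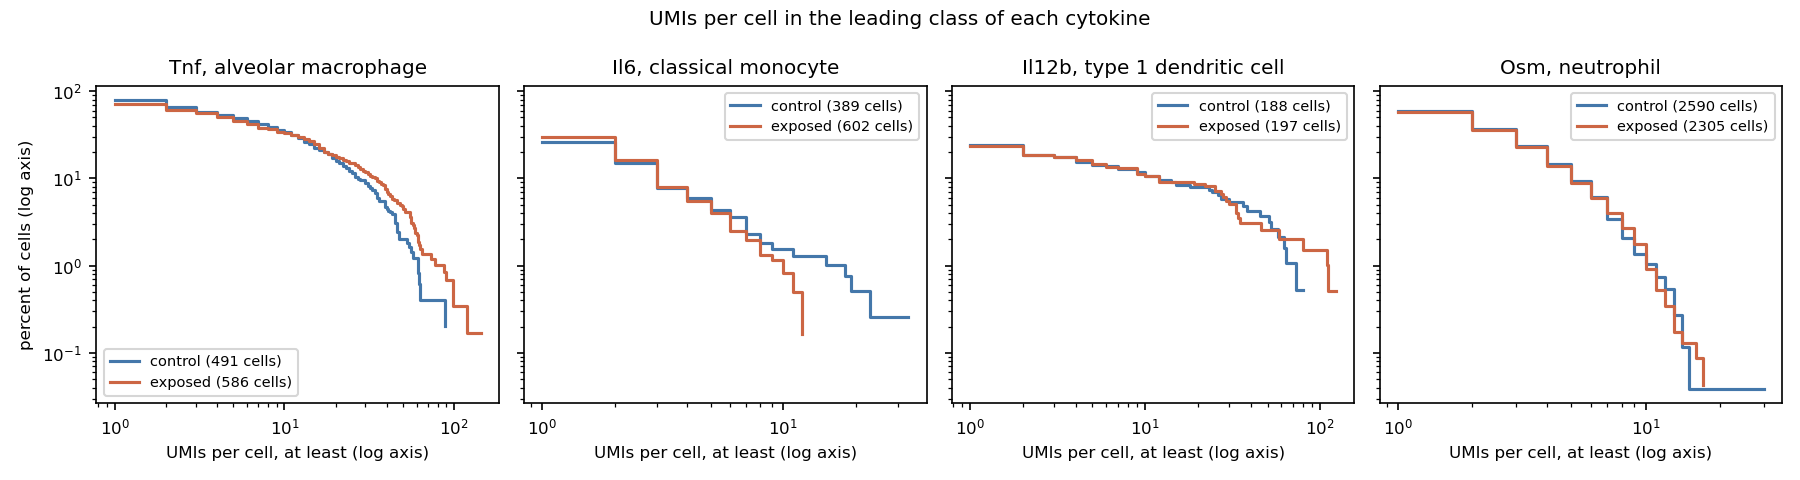
Curves give the percent of cells (log y axis) holding at least the number of UMIs on the log x axis, for each cytokine in the class with its largest count, blue for the control and orange for the exposed library. The Tnf curves run close together up to 20 UMIs, which 15.9% and 17.4% of cells reach, the Il6 curves part above 10 UMIs where 2 control cells reach 20 or more, and the Il12b and Osm curves run close together.

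The alveolar macrophages fell into 3 clusters. The largest held 383 control and 505 exposed cells, with Tnf at 542 and 719 CPM. A cluster of deep cells, with medians of 29406 and 27382 UMIs, stood at 367 and 436 CPM. The cluster of shallow cells, 38 control and 28 exposed, stood at 138 and 248 CPM. The exposed level was the higher in all 3, with overlapping intervals in the cluster of shallow cells.

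Other macrophages and the monocytes held Tnf as well. Interstitial macrophages, the resident macrophages of the lung tissue that carry C1qa and Cx3cr1, stood at 269 CPM (246 to 293) and 255 CPM (227 to 285). Their intervals overlapped, and 1 exposed cell with 114 UMIs held 37.5% of the exposed count. Without the highest cell of each library the log2 ratio there moved from -0.08 to -0.53. Nonclassical monocytes, the patrolling monocytes of the vessel wall, stood at 238 and 232 CPM, but their 2 clusters moved in opposite directions. The cluster of 171 control and 153 exposed cells stood at 304 CPM (267 to 345) and 210 CPM (181 to 242), and the other, of 132 and 117 cells, at 194 CPM (170.1 to 221) and 249 CPM (221 to 280). In the first cluster 36.8% and 36.6% of cells held a Tnf UMI, and 1 control cell with 51 UMIs held 21.2% of the control count. In the second cluster the shares were 51.5% (42.7 to 60.3) and 64.1% (54.7 to 72.8), with overlapping intervals. The second cluster carried many neutrophil transcripts, which are given with Osm. Classical monocytes, the monocytes recruited from blood, stood at 87.0 CPM (77.5 to 97.4) and 76.1 CPM (70.0 to 82.5), and the interval of their ratio included 0. Alveolar macrophages stood above and classical monocytes below the other macrophages and monocytes, while interstitial macrophages and nonclassical monocytes did not differ beyond counting error.

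Neutrophils held 652 control and 828 exposed Tnf UMIs, at 91.6 CPM (84.7 to 98.9) and 120 CPM (112 to 128), a log2 ratio of 0.38 (0.24 to 0.53). Their 2 main clusters differed. In the cluster led by Retnlg, S100a8 and S100a9 Tnf stood at 70.9 CPM (62.8 to 79.7) and 67.4 CPM (58.9 to 76.9). In the other, led by Il23a and Ptafr, it stood at 120 CPM (108 to 132) and 174 CPM (160.2 to 188). The level of the first cluster overlapped between libraries and that of the second did not. The unnamed cluster, which carried neutrophil transcripts, stood at 110 and 130 CPM with overlapping intervals.

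Dendritic cells present antigen to T cells, and 3 of their classes are described here. Type 1 dendritic cells, marked by Xcr1 and Clec9a, stood at 56.5 CPM (48.1 to 66.0, 160 UMIs) and 115 CPM (103 to 127, 348 UMIs). The log2 ratio was 1.02 (0.75 to 1.30), past 2-fold, but 5 of 13 alternatives gave 0.78 to 0.95 and so ended that call. The value was 0.78 with each library clustered alone and 0.95 without the highest cell of each library. Cells with at least 10 Tnf UMIs numbered 1 of 188 control and 10 of 197 exposed cells, and 1 exposed cell held 13.5% of the count. Neutrophil transcripts in the same cells were also higher in the exposed library, at 482 against 240.4 CPM for the summed list of 10 genes. S100a9 had the largest count in it, at 76.6 and 194 CPM, and Cxcr2 was at 0 in the control cells. At the neutrophils' own ratio of Tnf to that list, such an amount carries 0.13 and 0.30 CPM of Tnf. The part of neutrophil RNA in the Tnf difference was not tested. Type 2 dendritic cells stood at 42.0 CPM (33.9 to 51.5) and 26.9 CPM (19.7 to 35.8), a log2 ratio of -0.64 (-1.19 to -0.12). Mature dendritic cells, marked by Ccr7 and Fscn1, held 110 UMIs in 26 control cells and 17 in 33 exposed cells, and 1 control cell held 42.7% of the control count.

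Proliferating cells, a mixed class, stood at 167 and 308 CPM, and 1 exposed cell held 143 of the 716 exposed UMIs. The few basophils or mast cells held 5 and 45 Tnf UMIs and plasmacytoid dendritic cells 3 and 8. Lymphocytes held little Tnf. Group 2 innate lymphoid cells held 6 and 13 UMIs. T cells stood at 11.5 and 11.0 CPM, NK cells at 2.50 and 4.03 CPM and B cells at 2.97 and 3.54 CPM. Within T cells, the cluster with Foxp3, Ctla4 and Icos among its leading genes stood higher, at 29.6 CPM (21.3 to 39.9) in 249 control and 27.5 CPM (18.5 to 39.2) in 183 exposed cells, and 12.4% and 11.5% of its cells held a Tnf UMI. Among gamma-delta T cells the smaller of 2 clusters held more. That cluster, led by Cd163l1 and with Il17a among its leading genes, held 48 control and 43 exposed cells and stood at 95.2 CPM (63.3 to 138) and 152 CPM (108 to 209). The larger cluster stood at 11.3 CPM (5.62 to 20.1) and 6.65 CPM (2.44 to 14.5). A Tnf UMI was seen in 12 of 48 and 21 of 43 cells of the smaller cluster and in 9 of 168 and 6 of 134 cells of the larger. In B cells, the class with the lowest share and medians of 3296 and 3648 UMIs, a Tnf UMI was seen in 1.05% and 1.33% of cells, which is taken as the level of free RNA for this gene.

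Il6 stood at 23.9 CPM over all control and 19.2 CPM over all exposed cells, and several classes shared it. In the control library interstitial macrophages held 31.9% of its UMIs, classical monocytes 26.1% and alveolar macrophages 23.5%. In the exposed library classical monocytes held 40.3%, basophils or mast cells 33.3% and alveolar macrophages 162 of 1080 UMIs. No Il6 UMI was seen in 713 control and 633 exposed NK cells, which allows shares of cells with a UMI of up to 0.421% and 0.474% (3 cells of each total). This limits detection, not the share of cells expressing the gene, and NK cells are taken as the level of free RNA for Il6, at medians of 4024 and 4185 UMIs. Neutrophils held 6 and 1 Il6 UMIs in 2590 and 2305 cells.

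In 389 control classical monocytes Il6 stood at 94.8 CPM (84.9 to 106, 328 UMIs), and in 602 exposed ones at 57.1 CPM (51.9 to 62.8, 435 UMIs). The log2 ratio was -0.73 (-0.94 to -0.52), a level 1.66-fold higher in the control. The share of cells with an Il6 UMI was 26.5% (22.2 to 31.2) at a median depth of 8772 UMIs, and 30.1% (26.4 to 33.9) among exposed cells at 12283 UMIs. After thinning the shares were 6.74% and 5.32%, and the log2 ratio was -0.29. The highest control cell held 33 UMIs and 10.1% of the control count, the highest exposed cell 12 UMIs. Exposed classical monocytes with a UMI of the acute-phase genes Lrg1 or Saa3 (273 cells) stood at 48.4 CPM (41.8 to 55.6) of Il6, and those with neither (329 cells) at 67.2 CPM (59.0 to 76.3). Control classical monocytes with neither (379 cells) stood at 94.1 CPM (84.0 to 105), above both. The 10 control cells with a UMI of either gene stood at 128 CPM (61.3 to 235), overlapping the other control cells. The neutrophil list in classical monocytes moved as well, from 731 to 1451 CPM, with the largest ratios for Wfdc21 and Lcn2, the largest count for S100a8 and none of its 10 genes at 0. Whether these UMIs came from neutrophils, and their part in the Il6 difference, were not tested.

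Alveolar macrophages held 295 control and 162 exposed Il6 UMIs, at 30.9 CPM and 17.1 CPM with intervals apart. The log2 ratio was -0.85 (-1.14 to -0.57), opposite in sign to that of Tnf in the same cells. An Il6 UMI was seen in 15.9% and 9.90% of them.

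Other classes held little Il6. Type 2 dendritic cells stood at 18.7 CPM (13.4 to 25.4) and 22.2 CPM (15.7 to 30.5), with overlapping intervals. Nonclassical monocytes held 16 UMIs in each library, and proliferating cells 29 and 19. B cells held 1 and 3 Il6 UMIs and T cells 2 and 4. The unnamed cluster, gamma-delta T cells and plasmacytoid dendritic cells held none, while group 2 innate lymphoid cells and mature dendritic cells held 1 each, in the control.

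Interstitial macrophages showed the largest difference in Il6. They held 401 control UMIs in 27 of 157 cells and 19 exposed UMIs in 6 of 116 cells, at 204 CPM (184 to 225) and 15.9 CPM (9.58 to 24.9). The log2 ratio was -3.64 (-4.43 to -3.02), past 2-fold. Of the control count, 238 UMIs (59.4%) sat in 7 cells with UMIs of at least 2 of the genes Prg4, Alox15, F5, Selp and Ltbp1, and no exposed interstitial macrophage was of that kind. These 5 genes were picked after the values were seen, and all are known from macrophages of the serous cavities. Prg4, Alox15, F5 and Selp ranked among the genes that most accompanied Il6 in this class, and Ltbp1 did not. The share of Il6 in cells picked by these genes was thus partly set by the choice. The 7 cells stood at 1835 CPM of Il6 and 1927 CPM of Fcna, against 61.5 CPM of Fcna in the other control cells of the class. Their H2-Ab1, an antigen presentation gene, stood at 38.5 CPM against 4949 CPM, and Cx3cr1 was at 0 against 379 CPM. Without the 7 cells the control level was 88.7 CPM (75.6 to 103) and the log2 ratio -2.45, still past 2-fold and with intervals apart from those of the exposed library. Over all classes, UMIs of at least 2 of the 5 genes were seen in 34 control cells, these 7 among them, and in 23 exposed cells.

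**Figure D4:**
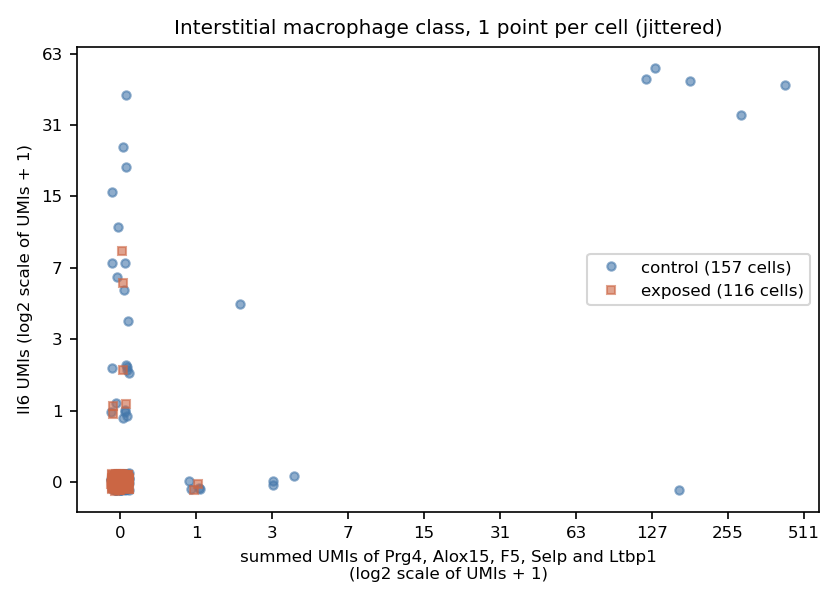
Each point is 1 cell of the interstitial macrophage class, with the summed UMIs of Prg4, Alox15, F5, Selp and Ltbp1 on the x axis and Il6 UMIs on the y axis, both on a log2 scale of UMIs + 1, blue circles for 157 control and orange squares for 116 exposed cells. The 7 control cells with at least 2 of these genes hold 238 of the 401 control Il6 UMIs, and no exposed cell has more than 1 UMI on the x axis.

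Basophils or mast cells were few, 7 control and 26 exposed cells, and were led by Mcpt8, Cd200r3, Fcer1a and Gata2, genes of basophils and mast cells. Mcpt8 was seen in 4 of 7 and 17 of 26 cells. The mast cell genes Kit, Mcpt4 and Cma1 were seen in 2, 0 and 2 of 7 control cells and in 2, 1 and 2 of 26 exposed cells. How basophils and mast cells divide this class was not tested. They had the highest Il6 levels of any class, 3941 CPM (3285 to 4689, 127 UMIs) and 2546 CPM (2289 to 2823, 360 UMIs). An Il6 UMI was seen in 5 of 7 and 22 of 26 cells, and at 1000 UMIs per cell the shares stayed at 71.4% and 84.6%. The 2 intervals did not overlap, but 1 control cell held 44.1% of the control count. Osm was also at its highest there, 3134 CPM (2553 to 3808) and 2206 CPM (1968 to 2465), with a UMI in 7 of 7 and 25 of 26 cells, and 1 control cell held 49.5% of the control count. No Il12b UMI was seen in them. The exposed cells held 16002 CPM of the neutrophil list against 310 CPM in the control cells, an amount that carries 43.4 CPM of Osm at the neutrophils' ratio, while 2206 CPM was measured. The part of neutrophil RNA in that level was not tested.

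Il12b was the most restricted of the 4. Type 1 dendritic cells stood at 291 CPM (272 to 312, 825 UMIs) and 322 CPM (302 to 343, 976 UMIs), a log2 ratio of 0.14 (0.01 to 0.28). It was seen in 45 of 188 and 47 of 197 cells, 23.9% in each library, and the thinned shares were 11.8% and 10.6%. Most type 1 dendritic cells thus held none, while the 10% of cells with the most held 88.4% of the control and 89.5% of the exposed UMIs. The highest cells held 80 and 123 UMIs. Mature dendritic cells had the highest level, 766 CPM (680 to 859, 289 UMIs in 14 of 26 cells) and 1190.4 CPM (1091 to 1296, 530 UMIs in 21 of 33 cells). Proliferating cells, a mix of unlike clusters, held 104 and 112 UMIs, at 42.4 and 48.2 CPM. A single cluster of 15 control and 26 exposed cells held all 104 control UMIs and 89 of the exposed. Il12b stood there at 273 CPM (223 to 331) and 146 CPM (117 to 180), with counting intervals apart. It was seen in only 5 of the 15 control and 8 of the 26 exposed cells, and the highest cells held 35 and 33 UMIs. The counting intervals do not cover such clumping.

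Outside these classes Il12b rested on single cells. Alveolar macrophages held 18 UMIs in 1 control cell and 84 in 2 exposed cells, 83 of them in 1 cell. Interstitial macrophages held 32 control UMIs, 27 of them in 1 cell, and 2 exposed UMIs. Type 2 dendritic cells held 54 control UMIs, 51 of them in 1 cell, and 6 exposed UMIs. The log2 ratios of 2.20, -2.98 and -2.71 were past 2-fold in all 3 classes, and each was set by 1 cell. In type 2 dendritic cells the sign depended on how cells were assigned: it was 1.11 with doublets kept and 0.74 with each library clustered alone. No Il12b UMI was seen in 2590 control and 2305 exposed neutrophils or in 1994 and 1800 B cells. T cells, the class taken as free RNA for this gene, held 3 and 1 UMIs. Classical monocytes held 1 and 2 and NK cells 0 and 1, and none was seen in nonclassical monocytes, the unnamed cluster, gamma-delta T cells, group 2 innate lymphoid cells or plasmacytoid dendritic cells.

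Osm stood at 158 CPM over all control and 149 CPM over all exposed cells. Neutrophils stood at 581 CPM (564 to 599, 4137 UMIs) and 520.4 CPM (504 to 538, 3604 UMIs), a log2 ratio of -0.16 (-0.22 to -0.09). With genes scaled to their median ratio in neutrophils it was -0.06. A UMI was seen in 59.5% and 57.4% of neutrophils at medians of 2678 and 2875 UMIs. B cells, the class taken as free RNA for this gene, had deeper medians of 3296 and 3648 UMIs, and 1.86% and 1.78% of them held an Osm UMI. They stood at 5.13 and 4.63 CPM, where the neutrophil list carries 0.94 and 0.89 CPM of Osm. Whether all Osm UMIs of B cells were free RNA was not tested. Osm was spread widely over neutrophils: the highest cells held 30 and 17 UMIs, and 1.04% and 0.911% of cells held at least 10. It was higher in the cluster led by Retnlg and S100a8, at 623 and 579.8 CPM, than in the other main cluster, at 532 and 469 CPM, the reverse of Tnf. The unnamed cluster stood at 619.8 and 537 CPM, close to neutrophils.

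Alveolar macrophages held 26.6% of the control and 24.7% of the exposed Osm UMIs. Their level was 233 CPM (223 to 242) and 219 CPM (209.6 to 229), with overlapping intervals. The share of these cells with an Osm UMI was 73.9% (69.8 to 77.8) among control and 54.8% (50.7 to 58.9) among exposed cells, with at least 5 UMIs in 30.4% and 24.6%. Thinned to 1000 UMIs the shares were 18.1% and 16.6%, with overlapping intervals. Of the 1100 and 902 CPM of the neutrophil list in these cells, Wfdc21 held 462 and 511. Whether those UMIs came from neutrophils was not tested. Taken whole, the list was at 0.628% and 0.471% of its level in neutrophils, which carries 3.65 and 2.45 CPM of Osm. The part of neutrophil RNA in the Osm of alveolar macrophages was not tested.

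Classical monocytes stood at 108 CPM (97.7 to 120) and 115 CPM (107 to 122) of Osm. Interstitial macrophages stood at 148 CPM (132 to 166) and 110.5 CPM (92.5 to 131), a log2 ratio of -0.42 (-0.73 to -0.12) that was 0.39 after thinning. Of the control count, 73 of 292 UMIs sat in the 7 cells with serous cavity genes. Nonclassical monocytes stood at 227 and 183 CPM, a log2 ratio of -0.31 (-0.51 to -0.10), and their 2 clusters differed. The first cluster, of 171 control and 153 exposed cells, stood at 58.0 CPM (42.5 to 77.4) and 68.8 CPM (52.7 to 88.2). The second, of 132 and 117 cells, stood at 337 CPM (305 to 372) and 275 CPM (245 to 308). The second cluster carried neutrophil transcripts at 35.4% and 36.3% of the neutrophil level, against 0.303% and 0.431% in the first. At the neutrophils' ratio this carries 206 and 189 CPM of Osm in the second cluster. NK cells stood at 25.6 and 25.5 CPM of Osm, above the 5.13 and 4.63 CPM of B cells with intervals apart, and the neutrophil list carries 0.83 and 0.73 CPM there. Proliferating cells stood at 62.8 CPM (53.3 to 73.6) and 93.4 CPM (81.4 to 107), a log2 ratio of 0.57 (0.27 to 0.88). Type 2 dendritic cells stood at 42.5 and 35.1 CPM, group 2 innate lymphoid cells at 15.7 and 19.1 CPM, gamma-delta T cells at 7.86 and 12.1 CPM and T cells at 7.16 and 6.14 CPM, each with overlapping intervals. Mature dendritic cells held 12 and 8 Osm UMIs and plasmacytoid dendritic cells 3 and 4. Type 1 dendritic cells, the main holders of Il12b, had the lowest Osm level of all classes, 1.06 and 1.98 CPM from 3 and 6 UMIs.

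**Figure D5:**
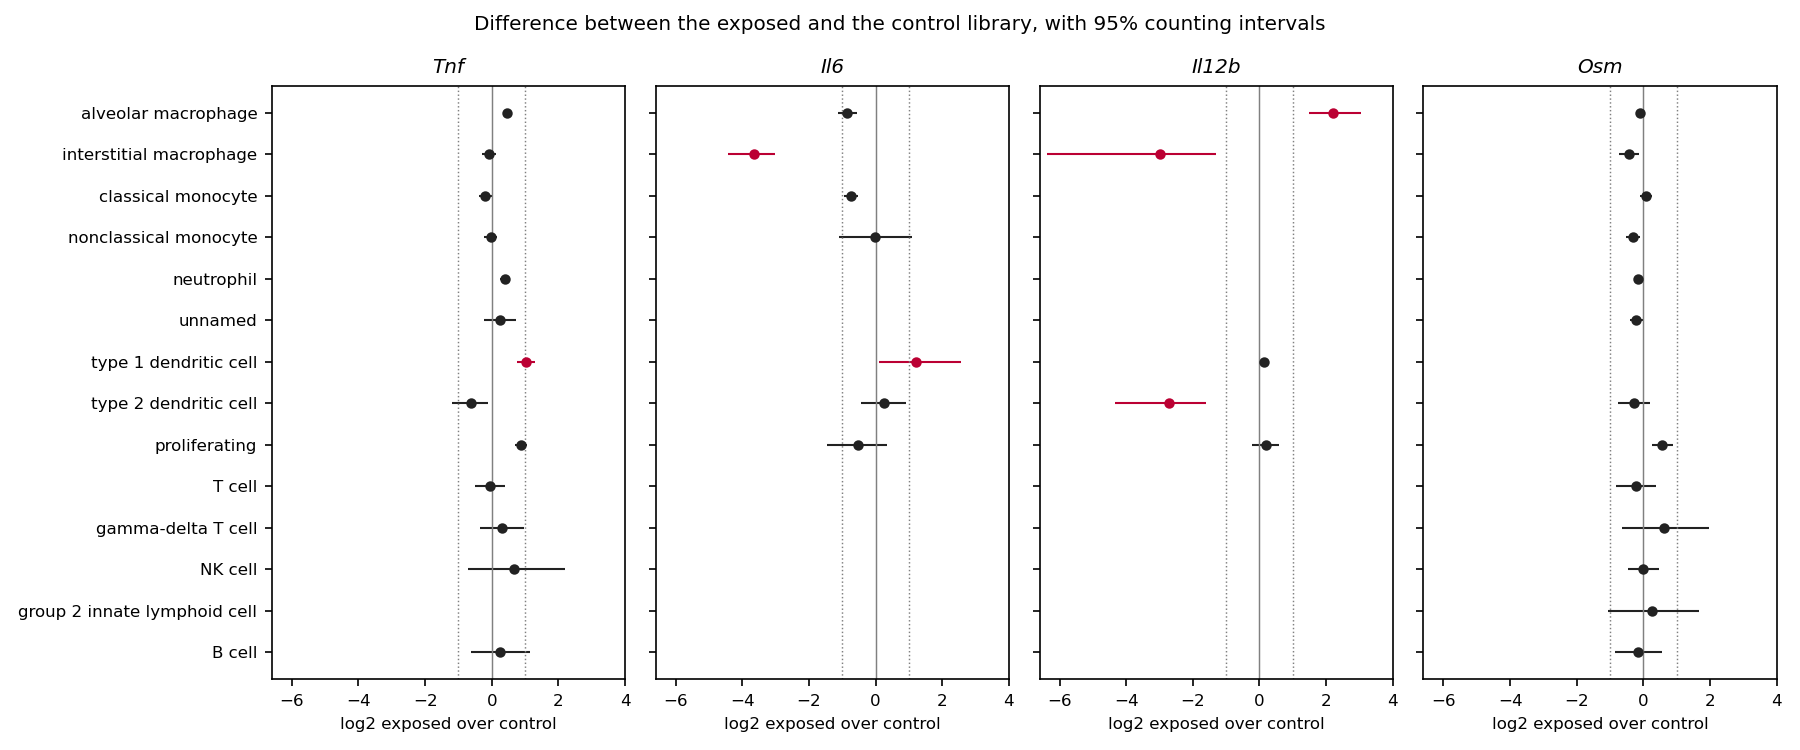
Points give the log2 ratio of exposed over control for each cytokine in each class with a summed count of at least 20, with exact 95% counting intervals, and red points are past 2-fold (dotted lines at -1 and 1). Classes with fewer than 50 cells in a library are not plotted, and among those plotted Osm and Tnf lie within 2-fold except Tnf in type 1 dendritic cells at 1.02, while the red Il12b points each rest on 1 cell.

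The count of members past 2-fold is read against all genes of the same class. In alveolar macrophages 1 of 4 members, Il12b with its 1 cell, was past 2-fold higher in the exposed library, where 0.44% of 10913 genes were, and 0 were lower, where 2.82% of genes were. In classical monocytes 0 of the 3 members with enough counts were higher or lower, against 2.76% and 2.68% of 9466 genes. In type 1 dendritic cells 2 of 3, Tnf and Il6, were higher, where 1.91% of 8904 genes were, and 0 were lower, where 2.19% of genes were. The Tnf call there ended under 5 of 13 alternatives, as given above. The Il6 count there was 9 against 23 UMIs, and without the highest cell of each library its log2 ratio was 0.09 in place of 1.21. In neutrophils 0 of 2 were higher or lower, against 1.15% and 3.71% of 8485 genes. In interstitial macrophages 2 of 4, Il6 and Il12b, were lower, where 7.08% of 8850 genes were, and 0 were higher, where 1.19% were. In type 2 dendritic cells 1 of 4, Il12b, was lower, where 6.3% of 8448 genes were, and 0 were higher, where 1.05% were.

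Members were also seen together in single cells, where cells with more UMIs have more of every gene. In alveolar macrophages an Il6 UMI was seen in 73 of 385 control cells with Tnf and 5 of 106 without (4.72%), at medians of 19116 and 13691 UMIs. In the exposed library the shares were 13.1% and 1.82%, at medians of 16177 and 13611 UMIs. In type 1 dendritic cells an Il12b UMI was seen in 44.0% of control cells with Tnf and 16.7% of those without, at medians of 15739 and 15035 UMIs. In the exposed library 31 of 74 cells with Tnf and 16 of 123 without held Il12b, and their medians were 15914 and 15997 UMIs, so depth was alike in that class. In neutrophils the shares with an Osm UMI were close, 60.9% of control cells with Tnf and 59.2% of those without, and 57.0% and 57.5% in the exposed library. In classical monocytes an Il6 UMI was seen in 37.5% of control cells with Tnf and 21.6% of those without, and in 34.4% and 27.2% in the exposed library.

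The receptors sat on other cells than the cytokines in part. Tnfrsf1a was high in neutrophils, at 366 and 348 CPM, and in nonclassical monocytes, at 273 and 229.8 CPM. Tnfrsf1b was highest in nonclassical monocytes, at 491 and 446 CPM. Il6ra stood at 192 and 138 CPM in nonclassical and at 163 and 114 CPM in classical monocytes. Il6st was highest in T cells, at 93.4 and 80.0 CPM. Il12rb2, a chain of the interleukin 12 receptor, was highest in NK cells, at 101 and 80.3 CPM, and Il23r in gamma-delta T cells, at 28.3 and 20.8 CPM. Osmr, the specific oncostatin M receptor chain, was near absent from these white blood cells, with its highest level 3.05 and 6.70 CPM in interstitial macrophages. Of the partner subunits of p40, Il12a was highest among the larger classes in B cells, at 27.7 and 23.3 CPM. Il23a stood at 55.8 and 46.4 CPM in neutrophils, which held no Il12b UMI.

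Other genes of the pathways are given in the class that led for each member, from lists of 84 genes in all. In alveolar macrophages, the Tnf class, 0 of 75 genes with enough counts were past 2-fold higher and 3 were lower, against the 0.44% and 2.82% of all genes above. Ltb, a lymphotoxin subunit, was at 73 and 33 UMIs, a log2 ratio of -1.12, and the others were Il1r2 and Mmp9 of the neutrophil list. Of the mRNA decay and feedback list, 10 of 11 genes were lower by less than 2-fold, with a median log2 ratio of -0.14 against -0.05 over all genes. That all-gene median was itself below 0, so lower genes were no minority in this class. Their exact share was not counted, and counts of lower genes have no such background here. Zc3h12a, an RNase that cuts cytokine mRNA, stood at 214 and 165 CPM, a log2 ratio of -0.38 (-0.47 to -0.28). Dusp1, a phosphatase that restrains p38, stood at 643 and 483 CPM, a log2 ratio of -0.41 (-0.47 to -0.36). The transcription genes stood at a median of -0.19. Below 0 were 11 of the 14, among them Nfkb1 at -0.38 (-0.47 to -0.29), while Cebpd stood at 0.53 (0.33 to 0.75). Of the shedding list 4 of 4 counted genes were lower, with a median of -0.09 and with Rhbdf2, a partner of ADAM17, at -0.33 (-0.55 to -0.12). All 8 genes of the STAT3 response list and 5 of 6 receptor genes were lower by less than 2-fold, with medians of -0.17 and -0.15. The median of the 20 immediate early and stress genes was 0.07, while the heat shock genes Hspa1a and Hspa1b stood at 0.82 (0.71 to 0.94) and 0.78 (0.67 to 0.89). Heat shock genes are known to respond to tissue digestion, and their part in the Tnf difference was not tested.

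In classical monocytes, the Il6 class, 8 of 74 genes with enough counts were past 2-fold higher, where 2.76% of all genes were. The 2 that were lower, where 2.68% of all genes were, were Il12rb2 at 16 and 14 UMIs and Socs1 at 10 and 11 UMIs. Zfp36l1, of the mRNA decay family, stood at 80.7 and 246 CPM, with a log2 ratio between 1.42 and 1.79, and Zfp36l2 at 510 and 318 CPM, a log2 ratio of -0.68 (-0.77 to -0.59). Lifr stood at 21.7 and 45.8 CPM, a log2 ratio of 1.07 (0.72 to 1.46), and Il6st at 41.1 and 24.7 CPM, a log2 ratio of -0.73 (-1.06 to -0.41). The STAT3 response list had a median of -0.02 against -0.04 over all genes, with Socs3, the feedback inhibitor of gp130 signalling, at 0.48 (0.38 to 0.59). The median log2 ratio of the immediate early genes was -0.17, while that of all genes was -0.04. Among these 20 genes 17 fell below 0, but how many of all genes did so in this class was not counted. The 17 therefore have no background here. Past 2-fold higher were 2 of the 20, Ier3 at 1.33 (1.21 to 1.47) and Egr2. Of the 10 genes past 2-fold, 4 belong to the neutrophil list.

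In type 1 dendritic cells, the Il12b class, 4 of 67 genes with enough counts were past 2-fold higher, all of the neutrophil list, against 1.91% of all genes, and 3 were lower, against 2.19%. The lower genes were Lif at 31 and 12 UMIs, Il23a at 20 and 8 UMIs and Il12rb2 at 31 and 10 UMIs. The medians of the transcription and the mRNA decay lists were 0.03 and -0.20, against 0.01 over all genes. Irf8, the factor that defines these cells, stood at 1025 and 1094 CPM, a log2 ratio of 0.09 (0.02 to 0.17). In neutrophils, the Osm class, 0 of 71 genes were past 2-fold higher, against 1.15% of all genes, and 2 were lower, near the 3.71% of all genes. Those 2 were Irf8 at 92 and 35 UMIs and Il10 at 17 and 5 UMIs. Nfkbia, the NF-κB inhibitor that NF-κB itself induces, stood at 3064 and 4284 CPM, a log2 ratio of 0.48 (0.46 to 0.51). The median of the transcription list was -0.01 and that of the mRNA decay list -0.20, against -0.10 over all genes. Socs3 stood at 0.46 (0.34 to 0.58), Egr1 at -0.52 (-0.58 to -0.46) and Dusp1 at -0.38 (-0.40 to -0.36).

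The genes most like each member were ranked by Pearson correlation of log2(CPM + 1) over 28 sums, of 14 classes in 2 libraries, among 12000 genes. These sums share their library, and a correlation over them describes the distribution over cell types only. Plin2, which coats lipid droplets, was most like Tnf (r = 0.93), followed by Wdfy3, App, Creg1 and Fndc3b. Fn1, encoding fibronectin, was most like Il6 (r = 0.93), followed by Ms4a6d, Tmem106a, Dnase1l1 and Hexa. A530099J19Rik was most like Il12b (r = 0.97), followed by Fam149a, Sept3, Ccser1 and Cd207, a surface lectin of dendritic cells. Cebpb, of the C/EBP family, was most like Osm (r = 0.98), followed by Pygl, Pgd, Atg7 and Tmem104. Between members r was highest for Tnf with Osm (0.64) and for Tnf with Il6 (0.59), and lowest for Il12b with Osm (-0.28).

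Within the leading class of each member, the genes that most set apart cells with a UMI from cells with none were also ranked, both libraries together. In alveolar macrophages with Tnf, Ereg, a ligand of the EGF receptor, stood 15.8-fold higher (7.20 to 43.3) and was seen in 109 cells. Jchain, Igha and Igkc ranked there too, but 1 cell held 98.5%, 94.7% and 90.6% of their UMIs, and Il12b followed with 3 cells. In classical monocytes with Il6, Il1a stood 3.51-fold (2.88 to 4.28), Csf3 3.18-fold (2.41 to 4.20), Gbp5 2.75-fold (2.25 to 3.38) and Cxcl10 2.53-fold (2.37 to 2.70) higher, while Cxcl9 rested on 1 cell. In type 1 dendritic cells with Il12b, the chemokine gene Ccl22 stood 3.35-fold (3.15 to 3.56) and Tnfsf9 3.03-fold (2.80 to 3.28) higher. Hilpda, Ccl2 and Gzma ranked above them with 91, 20 and 36 cells. In neutrophils with Osm, the granule genes Camp, Ngp and Ltf stood 5.49-fold, 4.18-fold and 4.18-fold higher, with Camp seen in 41 cells. The same genes led a small cluster of 13 control and 24 exposed neutrophils, deeper than the rest at medians of 6112 and 7869 UMIs. An Osm UMI was seen in 11 of the 13 and 18 of the 24 cells. Osm stood there at 439 CPM (302 to 617) and 419.7 CPM (334 to 521). That was not above all neutrophils, at 581 CPM (564 to 599) and 520.4 CPM (504 to 538), and the intervals overlapped. Median depth was higher in the cells with a UMI in all 4 cases, at 17431 against 13673, 11338 against 10276, 16703 against 15319 and 2850 against 2636 UMIs.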

How the data were processed

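The deposited files were raw counts of UMIs per gene and barcode from the 10x Genomics 3′ kit v3.1, limited by the authors to called cells and made with Cell Ranger against mm10. Its version is 3.1.3 per the submitters' processing notes and 3.1.0 per the file headers. Barcodes were kept with at least 500 UMIs, 200 genes and at most 10% mitochondrial UMIs. Doublets were scored against 2 simulated doublets per cell over 60 neighbours, and the expected number (0.8% per 1000 cells), 751 control and 706 exposed barcodes, was removed. Counts were scaled to 10000, and 2000 variable genes, 30 components and 20 neighbours were clustered with scanpy 1.11.5 and leidenalg 0.10.2 at resolution 1. Neither the members nor the other listed genes that mark no class entered the choice of variable genes. A cluster took the class with at least 3 markers among its 50 leading genes and no other class ahead among the first 10. Even so, Il12b was among the leading genes of dendritic cell clusters and Il6 of the basophil or mast cell cluster.

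CPM are UMIs summed per class and library over all UMIs of that class, with Poisson intervals. Log2 ratios had 0.5 added to each sum and exact conditional binomial intervals. On counts simulated from the Poisson model that they assume, the intervals held the true value about as often as they should. That check does not cover UMIs clumped in single cells. Depth was thinned to 1000 UMIs per cell where shares were compared. UMIs that a gene would have from neutrophil RNA were taken from the summed CPM of 10 neutrophil genes (S100a8, S100a9, Retnlg, Lcn2, Wfdc21, Csf3r, Cxcr2, Mmp9, G0s2 and Il1r2) relative to neutrophils. Whether free RNA keeps the average ratio of neutrophils was not tested, and Tnf differed between their clusters. Members are given in every class. Of each list, up to 3 genes were named in the leading class of each member, those with the largest count and those whose interval bound lay farthest from 0, and genes past 2-fold in small numbers were named after their values were seen. The 5 most like genes needed 100 UMIs and the 5 companions 50 UMIs. The members and lists were chosen with earlier results of these data known. Alternatives covered filters, doublets, clustering, weighting, depth, scaling and low counts.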

Additional observations from a re-analysis of the deposited data

Results flagged for a closer look

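Each gene had classes whose ratios pointed in opposite directions, with both counting intervals clear of 0. The differences between classes were not tested, since each group held 1 library. Tnf had log2 ratios of 1.02 in type 1 and -0.64 in type 2 dendritic cells. Il6 had 1.21 in type 1 dendritic cells and -3.64 in interstitial macrophages. The first rested on 9 against 23 UMIs, with 15 of the 23 in 1 cell, and was 0.09 without the highest cell of each library. Il12b had 2.20 in alveolar macrophages and -2.71 in type 2 dendritic cells, each resting on 1 cell. Osm had 0.57 in proliferating cells and -0.42 in interstitial macrophages, where 10 of 13 alternatives kept the sign.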

How the results depend on the processing

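All 4 log2 ratios in the leading classes kept their sign under every alternative that gave a value, 13 or 14 each, and 45 of 53 such values lay inside the counting interval. For Tnf in alveolar macrophages the ratio was 0.34 with doublets kept, 0.38 under stricter filters (1000 UMIs, 500 genes, 5% mitochondrial) and 0.34 with each cell weighing the same. Thinned to 1000 UMIs, the ratio was -0.29 for Il6, 0.0047 for Il12b and -0.0566 for Osm. It was 0.33 for Il12b under stricter filters and -0.0574 for Osm with scaling by the median ratio of genes. Il12b in type 2 dendritic cells, at -2.71, turned to 1.11 with doublets kept, 1.05 under stricter filters, 0.94 at Leiden resolution 1.6 and 0.74 with each library clustered alone. Osm in interstitial macrophages, at -0.42, turned to 0.0178 with no filter, 0.14 with each cell weighing the same and 0.39 when thinned. The cause of these shifts was not tested. List genes past 2-fold numbered 3 in alveolar macrophages, 7 in type 1 dendritic cells and 2 in neutrophils. With a summed count of at least 1 they numbered 6, 11 and 7, and with at least 50 they numbered 3 in type 1 dendritic cells and 1 in neutrophils. Alternatives that left a library without a UMI gave no value. Of 241 values over 19 results, 209 lay inside the counting interval, and 7, all given above, turned the sign of a ratio whose interval excluded 0. Ratios whose interval included 0 also changed sign: Tnf in interstitial macrophages kept it in 10 of 13 alternatives and Osm in classical monocytes in 12 of 13. Tnf in type 1 dendritic cells, at 1.02, fell under 2-fold at Leiden resolution 0.6 (0.95), with a marker gate per cell (0.95), with each library clustered alone (0.78), with each cell weighing the same (0.95) and without the highest cells (0.95). Without the shallow alveolar macrophage cluster, and without the 7 interstitial macrophages, both added after the data were seen, the ratios were 0.44 for Tnf and -2.45 for Il6. No paired analysis was possible because each group held 1 library. Depth limits shares of cells with a UMI in shallow classes, such as neutrophils at medians of 2678 and 2875 UMIs.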
